A study of Rattus norvegicus with 2 samples.

Results

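Granulocyte progenitors are described here as they were found in the zygomatic maxillary suture of the rat, a suture of the midface, by single-cell RNA sequencing on BD Rhapsody cartridges. A cell was kept when it had at least 500 UMIs (unique molecular identifiers, each standing for 1 captured mRNA), at least 200 genes and under 25% of its UMIs from mitochondrial genes. A kept cell was counted as a progenitor when Mpo, Elane, Prtn3 and Ctsg together made up at least 1% of its UMIs. This rule took 173 of 9220 kept cells, 100 of 4037 after distraction and 73 of 5183 after the sham operation. Both libraries came from rats 4 weeks old under chloral hydrate anaesthesia whose maxilla and zygoma were exposed and drilled. In the distraction group a W-shaped spring of 0.4 mm nickel-titanium wire, calibrated to an initial force of 20 g, then pulled on the bones for 7 days. In the sham group the bones were drilled and no spring was placed. There was 1 library per group. The strain, the sex and how many animals gave each library are not stated in the labels. No test between the groups was therefore possible, and the 95% intervals given below cover counting error only, not the spread between animals. Intervals of gene levels count pooled UMIs and also leave out the spread between cells, as do the calls made from them.

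Neutrophils are made in the marrow through a stepwise filling of granules. Primary (azurophil) granules, with myeloperoxidase and the serine proteases elastase, proteinase 3 and cathepsin G, are loaded at the promyelocyte stage, secondary granules with lactoferrin and lipocalin follow, and gelatinase granules and the calprotectin proteins come last. The mRNA of each granule type is made only while that granule is being filled, so it is used to stage the cell. In the rat, unlike the mouse, neutrophils also carry alpha-defensins, small antimicrobial peptides stored in primary granules. The same early progenitors can give rise to monocytes.

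Kept cells of the distraction library had a median of 4161 UMIs, those of the sham library 3033. The progenitors were set beside 1016 distraction and 630 sham cells of the neutrophil lineage, which were not progenitors and had at least 5% of their UMIs from Ngp, Lcn2, Camp, Ltf, S100a8 and S100a9, and beside 1584 and 3402 B-lineage cells, named from at least 3 UMIs of B markers, as a measure of RNA from other cells. The libraries shared 22 cell numbers, and no progenitor had one of these. No doublet caller was used, so undetected doublets must be assumed.

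All 4 genes of the rule were present together in these cells. Mpo, the myeloperoxidase gene, stood at 12393 CPM (its UMIs summed over the cells, scaled so that all genes add up to 1000000) in distraction progenitors and 11788 CPM in sham progenitors, against 62.0 and 55.1 CPM in B-lineage cells. Ctsg, which encodes cathepsin G, stood at 11589 CPM in distraction and 11199.5 CPM in sham progenitors. Elane, the neutrophil elastase gene, was at 4892 and 4247 CPM, and Prtn3, the proteinase 3 gene, at 3122 and 2765 CPM in the same order of libraries. Every progenitor of both libraries had at least 1 UMI of Mpo and of Ctsg. Elane was seen in 100% of distraction and 95.9% of sham progenitors and Prtn3 in 100% and 97.3%, against 4.36% and 2.82% of B-lineage cells for Elane. These values chose the cells and are given as a description.

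The summed share of the 4 genes ran from 1.10% through a median of 3.35% to 7.41% of a cell's UMIs in the distraction library, and from 1.08% through 2.48% to 8.44% in the sham library. Just outside the limit the next cells had 0.997% and 0.950%. Between 0.5% and 1% lay 26 distraction and 28 sham cells, between 1% and 2% lay 27 and 29, between 2% and 5% lay 51 and 32, and above 5% lay 22 and 12, so there was no gap in the values at the limit. Outside the progenitors the same 4 genes summed to 279 CPM in distraction and 124 CPM in sham cells of the neutrophil lineage.

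Of the given markers the rule left out Ms4a3. This gene, a membrane protein gene of granulocyte and monocyte progenitors, was seen in 92% of distraction and 76.7% of sham progenitors, against 17.7% and 15.9% of the other neutrophil-lineage cells and 0.568% and 0.353% of B-lineage cells. With each progenitor thinned to 4000 UMIs, which left out 17 distraction and 31 sham cells, the shares were 86.7% (95% exact interval 77.5 to 93.2) and 61.9% (45.6 to 76.4). Kit, the receptor of stem cell factor, was seen in 21.7% of thinned distraction and 38.1% of thinned sham cells, and in 53% and 47.9% before thinning, against 3.28% and 2.62% of B-lineage cells. Prom1, the prominin gene of early progenitors, was seen in 59.0% and 50% of thinned cells, and in 86% and 68.5% before, against 6.25% and 5.38% of B-lineage cells. Cd34, a surface marker of early progenitors, was seen in 9.64% and 7.14% of thinned cells and in 45% and 28.8% before. B-lineage cells had it in 18.1% and 14.9%, so its share in thinned progenitors was not above this background. T and NK markers summed to 2.04 CPM in distraction and 2.94 CPM in sham progenitors, with 4 and 6 of 8 markers at 0, and endothelial markers to 1.36 and 2.94 CPM. B markers summed to 25.2 and 71.4 CPM, with 2 of 9 at 0 in each, against 2950 and 3166 CPM in B-lineage cells.

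The promoters of genes that mark the 3 states described below are shown here, to set the rule genes, the defensins and Fcnb beside each other at the level of sequence. They cover 250 bases before to 50 bases after the gene start in RefSeq, build GRCr8, and are written 5′ to 3′ on the gene's strand. Capitals mark matches on either strand to the letters TTGCNNAA (a C/EBP core, held by 10.6% of 33469 rat promoters of this length), GAGGAA (a PU.1 core, 27.6%) and TGTGGT (a RUNX core, 17.3%). C/EBP, PU.1 and RUNX proteins are transcription factor families of myeloid cells. Mpo lies at chr10:73092152-73092451 on the plus strand, Ctsg at chr15:33907547-33907846 on the minus strand, the defensin gene RatNP-3b at chr16:77248928-77249227 on the minus strand, the defensin gene Np4 at chr16:77199593-77199892 on the minus strand and Fcnb at chr3:31800139-31800438 on the minus strand.
Mpo: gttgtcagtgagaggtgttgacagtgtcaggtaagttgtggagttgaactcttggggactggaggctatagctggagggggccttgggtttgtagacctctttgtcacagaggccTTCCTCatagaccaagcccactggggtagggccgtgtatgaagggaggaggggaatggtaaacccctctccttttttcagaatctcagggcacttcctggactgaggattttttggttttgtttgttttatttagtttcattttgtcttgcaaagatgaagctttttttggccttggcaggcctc
Ctsg: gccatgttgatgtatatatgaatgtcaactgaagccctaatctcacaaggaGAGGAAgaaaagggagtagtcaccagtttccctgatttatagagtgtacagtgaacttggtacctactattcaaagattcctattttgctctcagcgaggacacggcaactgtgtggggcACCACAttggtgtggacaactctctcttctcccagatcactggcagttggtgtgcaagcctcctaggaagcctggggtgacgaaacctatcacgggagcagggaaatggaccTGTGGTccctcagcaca
RatNP-3b: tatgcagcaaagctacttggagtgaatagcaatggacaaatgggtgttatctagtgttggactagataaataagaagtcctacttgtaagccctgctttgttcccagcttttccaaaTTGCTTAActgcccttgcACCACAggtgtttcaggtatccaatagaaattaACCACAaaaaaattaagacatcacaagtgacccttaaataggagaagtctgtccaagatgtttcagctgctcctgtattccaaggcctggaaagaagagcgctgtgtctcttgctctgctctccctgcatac
Np4: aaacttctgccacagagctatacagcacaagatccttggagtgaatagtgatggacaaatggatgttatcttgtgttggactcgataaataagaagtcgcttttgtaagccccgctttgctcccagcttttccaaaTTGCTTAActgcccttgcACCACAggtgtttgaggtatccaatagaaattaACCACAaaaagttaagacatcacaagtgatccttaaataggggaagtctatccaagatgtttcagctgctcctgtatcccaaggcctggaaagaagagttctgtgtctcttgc
Fcnb: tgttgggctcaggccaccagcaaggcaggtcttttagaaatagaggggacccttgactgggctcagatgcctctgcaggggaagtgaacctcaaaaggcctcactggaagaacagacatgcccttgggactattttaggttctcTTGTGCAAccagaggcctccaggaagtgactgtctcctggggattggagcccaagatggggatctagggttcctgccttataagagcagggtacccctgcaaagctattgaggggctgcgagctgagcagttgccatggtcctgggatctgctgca

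The PU.1 letters stood in 3 of 3 promoters of rule genes found in the table (Mpo, Ctsg and Prtn3), and the C/EBP letters in none of the 3. The C/EBP and the RUNX letters each stood in 3 of 4 defensin promoters found there. Without gaps and at a shift of 19 letters, RatNP-3b and Np4 had equal letters at 180 of 281 positions (64.1%), so the matches in these 2 do not count as separate occurrences. A match is a description of letters and not a binding site.

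Depth fell into separate ranges. In the distraction library 18 progenitors had at most 4740 UMIs and 82 had at least 9281. In the sham library 32 had at most 5246 and 41 at least 8977. A limit of 8000 UMIs, chosen after this gap was seen, was therefore used to split shallow from deep progenitors. The median progenitor had 33151.5 UMIs and 4507 genes in the distraction library, against 16401 UMIs and 2718 genes in the sham library, and the mitochondrial share was 8.71% and 8.74%. In terciles of depth over both libraries, the low tercile held 23 distraction and 35 sham progenitors, the middle tercile 31 and 26, and the high tercile 46 and 12.

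Shallow progenitors were then set against deep ones. Of 2866 genes tested, 14 were higher in shallow progenitors (0.488%) and 8 were lower (0.279%), past a ratio of 2 with an interval on 1 side of 1 in each library. The shallow pools were small, so that genes near 50 CPM rested on a few counts and could not be called, and the low counts of calls do not show that the cells were alike. Fcnb was among the lower, at 24.7 CPM in shallow and 429 CPM in deep distraction progenitors and at 407 and 1746 CPM in sham ones. Cd24, a surface glycoprotein gene abundant in immature B cells, stood at 124 CPM in shallow and 9.66 CPM in deep distraction progenitors, and at 153 and 23.9 CPM in sham ones, against 2556 and 2522 CPM in B-lineage cells. Cd24 reached 50 CPM only in shallow progenitors and Fcnb in distraction only in deep ones, so these directions were fixed. Cxcr4, the receptor that retains cells in the marrow, stood at 816 and 178 CPM in distraction and 628 and 202 CPM in sham progenitors, against 3603 and 3701 CPM in B-lineage cells. B markers summed to 198 CPM in shallow and 22.8 CPM in deep distraction progenitors, and to 492 and 52.3 CPM in sham ones. Cd24 and Cxcr4 thus moved with the B markers, whose part was not tested. The defensin list had 0 of 4 called, with median log2 ratios of -0.51 in distraction and 0.70 in sham.

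Against the other neutrophil-lineage cells the progenitors were rich in the machinery of protein making and poor in the products of later stages. Since both sets of cells were chosen on granule genes, the contrast is a description. Of 3107 genes tested, 1206 were higher in progenitors in both libraries (38.8%) and 460 lower (14.8%). The median log2 ratio over all genes was 0.66 in distraction and 0.69 in sham. Of genes for folding and secretion at the endoplasmic reticulum, 24 of 25 were higher and 0 lower. Calr, the chaperone calreticulin, had 2476 CPM in progenitors and 170 CPM in other neutrophil-lineage cells of the distraction library, and 2825 and 195 CPM in the sham library. Pdia4, a protein disulfide isomerase gene, had 94.0 and 3.41 CPM in distraction and 103 and 3.48 CPM in sham. Of genes for ribosome making, 14 of 14 were higher, among them Nop58, a nucleolar protein gene, at 359 and 42.2 CPM in distraction and 506 and 54.3 CPM in sham. Pdia4 in both libraries and Nop58 in distraction reached 50 CPM only in the progenitors, so they had to come out higher there. The counts of these lists were thus in part fixed by the limit.

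Of 20 stem and early progenitor genes listed only 3 were tested, of which Kit and Prom1 were higher and Cd48 was not called. Kit stood at 80.0 CPM in progenitors and 0.568 CPM in other neutrophil-lineage cells of the distraction library, and at 124 and 1.60 CPM in the sham library. Prom1 had 284 and 17.3 CPM in distraction and 322 and 11.8 CPM in sham. Myc, a transcription factor gene of growing cells, had 112 and 15.0 CPM in distraction and 158 and 15.2 CPM in sham. The highest by the smaller of both ratios were C1qbp, a mitochondrial matrix protein gene, Kit, Ramp1, a receptor activity-modifying protein gene, Slc25a15, the mitochondrial ornithine carrier, and Ahcy, which breaks down S-adenosylhomocysteine. C1qbp had 437 and 6.95 CPM in distraction and 553 and 13.1 CPM in sham. Kit, Prom1, Myc and C1qbp reached 50 CPM only in the progenitors. They had to come out higher, and their direction is no result.

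Products of later granules were lower. Of 17 secondary granule genes measured, 14 were tested and were lower, and of 20 calprotectin and late neutrophil genes 16 were tested and 14 were lower. Some of these, such as Cd177 and Pglyrp1, reached 50 CPM only in the other neutrophil-lineage cells and so had to come out lower. Ngp, Lcn2, Camp and Ltf of the first list and S100a8 and S100a9 of the second had been used to choose the other cells. Mmp9, the gelatinase B gene, stood at 2.72 CPM in progenitors and 997 CPM in other neutrophil-lineage cells of the distraction library, and at 2.21 and 1104 CPM in the sham library. Mmp8, the neutrophil collagenase gene, stood at 36.8 and 3162 CPM in distraction and 10.3 and 3302 CPM in sham. Stfa2, a stefin gene, had no UMI in the progenitors of either library, which made it at least 126-fold lower in distraction and at least 43.5-fold lower in sham, taking 3 counts over the library's progenitors as the floor. Cxcr2, the chemokine receptor of mature neutrophils, had 3.74 and 228 CPM in distraction and 2.21 and 257 CPM in sham. Mmp9, Mmp8, Stfa2 and Cxcr2 also reached 50 CPM only in the other neutrophil-lineage cells and so had to come out lower. Of the 5 phagocyte oxidase genes tested 4 were lower, among them Cybb, the catalytic subunit, at 584 and 2278 CPM in distraction and 497 and 2146 CPM in sham. Of the defensins 0 of 4 were called, with median log2 ratios of 0.07 and -0.46.

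**Figure D1:**
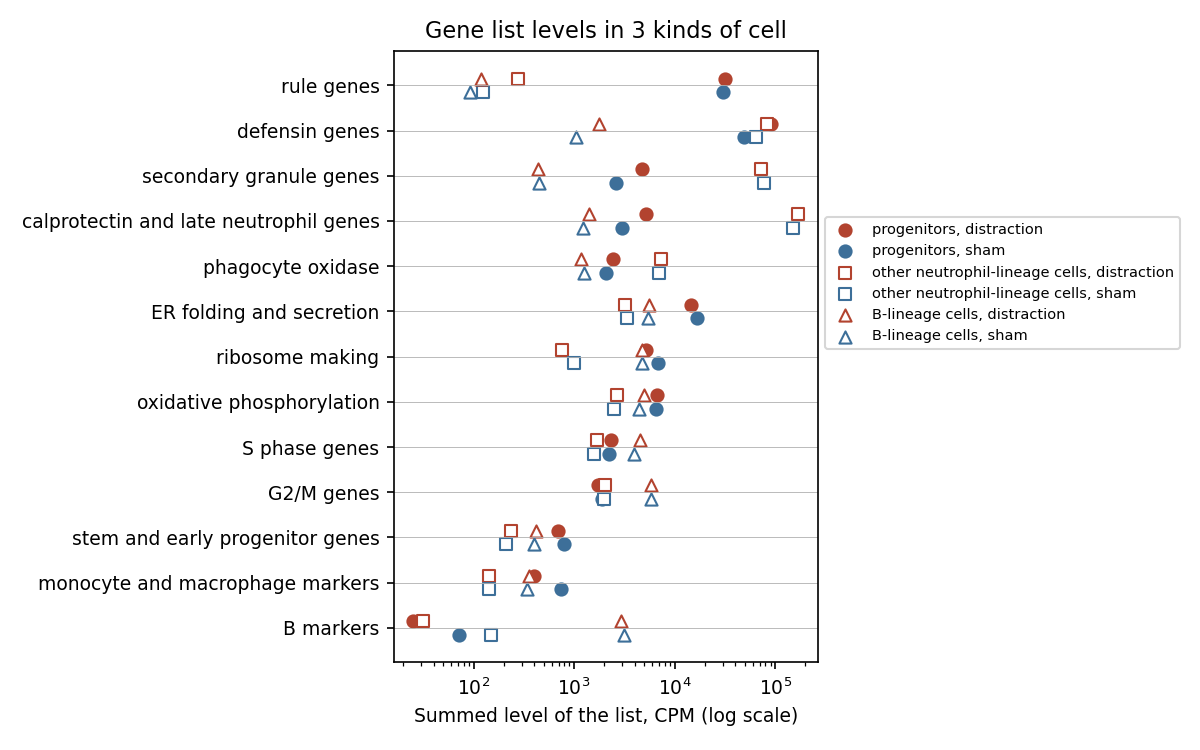
Summed level of each gene list in CPM (x axis, log scale) for progenitors (filled circles), other neutrophil-lineage cells (squares) and B-lineage cells (triangles), with distraction in red above sham in blue. Genes of secretion and ribosome making lie higher in progenitors than in other neutrophil-lineage cells, secondary granule and late neutrophil genes lie lower, and defensins lie close together in both.

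Defensins divided the progenitors instead. The summed share of defensin genes per cell ran over several orders of magnitude, and 3 classes were set after this was seen: defensin-rich (at least 5% of the cell's UMIs), defensin-poor (under 0.5%) and those between. In the distraction library 52 progenitors were defensin-rich, 12 between and 36 defensin-poor. In the sham library 22 were defensin-rich, 11 between and 40 defensin-poor. The defensin-rich share was 52.0% (41.8 to 62.1) in distraction and 30.1% (19.9 to 42.0) in sham, a ratio of 1.73 (1.03 to 2.98).

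The direction was the same in both depth ranges. Among deep progenitors 43 of 82 distraction cells (52.4%, 41.1 to 63.6) and 11 of 41 sham cells (26.8%, 14.2 to 42.9) were defensin-rich, a ratio of 1.95 whose interval, 0.991 to 4.20, included 1. Among shallow ones 9 of 18 distraction and 11 of 32 sham cells were defensin-rich, which was 50% and 34.4%. With the limit at 2% or at 10% of UMIs in place of 5%, the ratio was 1.49 (0.930 to 2.43) and 1.498 (0.845 to 2.75). The intervals of these alternatives also included 1, so the direction was the same at each limit but not resolved beyond counting error at the other limits or in deep cells.

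**Figure D2:**
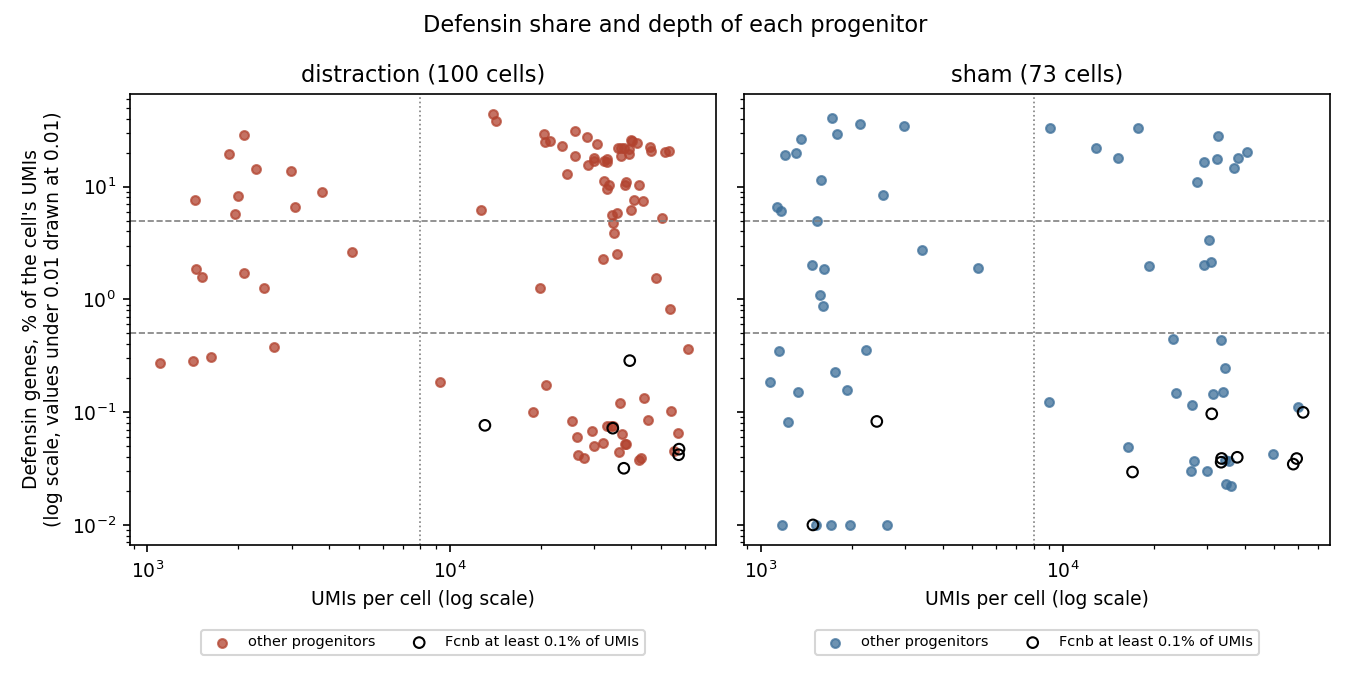
Each point is 1 progenitor, with its UMIs on the x axis (log scale) and the share of its UMIs from defensin genes on the y axis (log scale, values under 0.01% drawn at 0.01%). The dotted line is at 8000 UMIs, the dashed lines are at 0.5% and 5%, and open circles are cells with at least 0.1% of UMIs from Fcnb, which all lie under 0.5%.

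**Figure D3:**
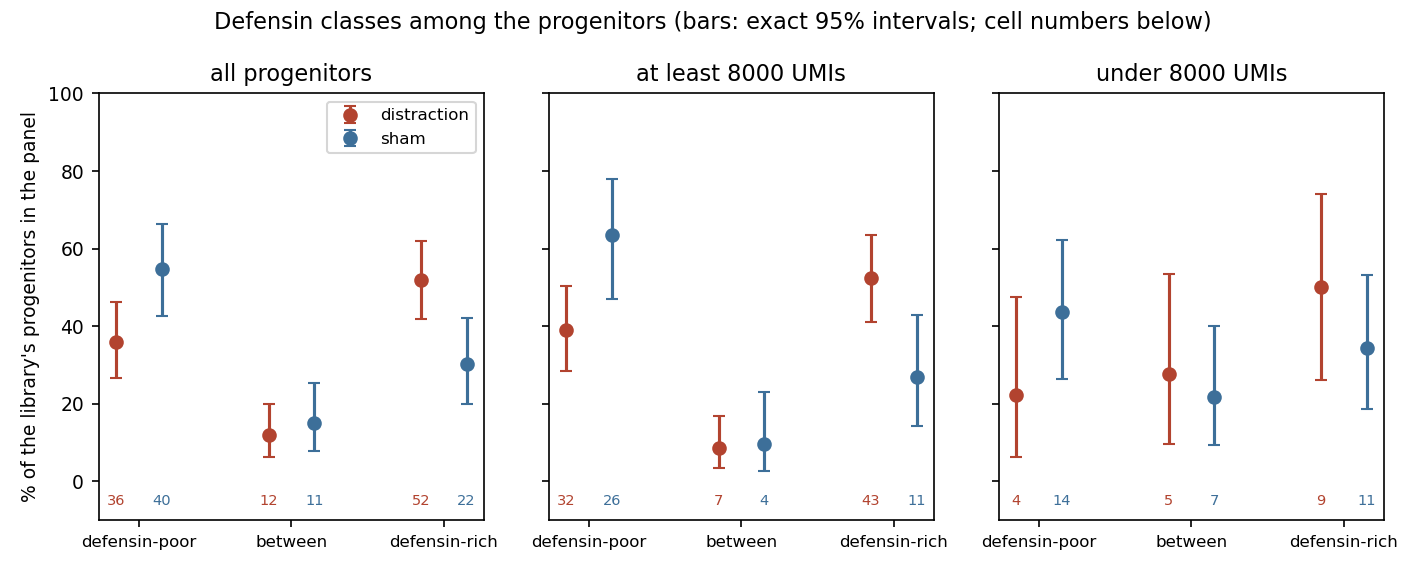
Share of each library's progenitors in the 3 defensin classes (y axis, percent) over all progenitors, those of at least 8000 UMIs and those under it, with exact 95% intervals and cell numbers. The defensin-rich share is higher and the defensin-poor share lower in distraction than in sham in each panel, with intervals that overlap.

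The defensin classes were compared over all genes. The contrast was made among deep progenitors, 43 rich against 32 poor distraction cells and 11 rich against 26 poor sham cells, and genes were called past a ratio of 2 in both libraries. Of 3131 genes, 93 were higher in defensin-rich cells (2.97%) and 445 lower (14.2%), with a median log2 ratio over all genes of -0.53 in distraction and -0.54 in sham. The defensin genes themselves, which made the classes, summed to 174664 CPM in rich and 905 CPM in poor distraction cells, and to 197014 and 951 CPM in sham cells. This larger defensin part lowers the CPM of every other gene in rich cells, and these ratios were not adjusted for it. How many of the lower calls come from this scaling was not tested. The rule genes, of which every progenitor had to hold 1%, summed to 29333 CPM in rich and 30877 CPM in poor distraction cells and to 25570 and 29190 CPM in sham cells.

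Genes of secreted and surface products of granulocytes were among those higher in defensin-rich progenitors. Alpl, the alkaline phosphatase gene also used as a neutrophil marker, stood at 472 CPM in rich and 14.4 CPM in poor distraction cells, and at 359 and 29.0 CPM in sham cells. Retn, the resistin gene, stood at 308 and 15.3 CPM in distraction and 359 and 32.3 CPM in sham. Alpl and Retn reached 50 CPM only in the rich cells, so they had to come out higher and their direction is no result. Anxa1, the gene of the phospholipid-binding protein annexin A1, stood at 5509 and 528 CPM in distraction and 5887 and 322 CPM in sham. Csf1, which encodes macrophage colony-stimulating factor, had 416 and 56.8 CPM in distraction and 691 and 70.2 CPM in sham. Others of the 12 highest were Olr1, a scavenger receptor gene, the ectonucleotidase gene Entpd2, the lipase inhibitor gene G0s2, the sulfhydryl oxidase gene Qsox1, Plbd1, Npdc1, the activin subunit gene Inhba and the phospholipase gene Pla2g7. Of the companions of primary granules 4 of 11 were higher and 2 lower. Ms4a3 was among the higher, at 972 and 288 CPM in distraction and 667 and 298 CPM in sham, and Serpinb1a, an inhibitor of the granule proteases, at 6070 and 1664 CPM in distraction and 4399 and 1435 CPM in sham.

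Some late genes were also higher in defensin-rich cells. S100a9, 1 of the 2 calprotectin genes, stood at 3146 CPM in rich and 1161 CPM in poor distraction cells, and at 3092 and 124 CPM in sham cells. Of the late neutrophil list 3 of 8 were higher and 1, Il1b, was lower. Of secondary granule genes 2 of 7 were higher and 0 lower, among them Chi3l1, a chitinase-like protein gene, at 535 and 154 CPM in distraction and 722 and 91.4 CPM in sham. The summed secondary granule level was 7195 CPM in rich and 2205 CPM in poor distraction cells, with a single poor cell at 121108 CPM, and 7697 and 827 CPM in sham cells.

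Part of the growth genes were lower in defensin-rich progenitors. Of the ribosome making list 10 of 17 were lower and 0 higher, with medians of -1.16 and -1.32 beside -0.53 and -0.54 over all genes; Npm1, the nucleophosmin gene, had 1027 and 2663 CPM in distraction and 941 and 2696 CPM in sham. Of S phase genes 5 of 13 were lower and 0 higher, among them Mcm6, part of the replicative helicase, at 82.3 and 179 CPM in distraction and 68.4 and 181 CPM in sham. Neither list was adjusted for the larger defensin part of the UMIs in rich cells. No G2/M gene of 11 was called. Kit stood at 26.1 and 148 CPM in distraction and 30.8 and 169 CPM in sham. Hopx, a homeodomain-only protein gene, had no UMI in rich cells, against 263 CPM in poor distraction and 357 CPM in poor sham cells, which is at least 128-fold and at least 34.7-fold lower, taking 3 counts over each library's rich cells as the floor. Padi2, a peptidylarginine deiminase gene, also had none, against 65.3 and 118 CPM. Fcnb, the gene of the complement lectin ficolin B, stood at 17.1 and 1027 CPM in distraction and 10.3 and 2497 CPM in sham. Kit, Hopx, Padi2 and Fcnb reached 50 CPM only in the poor cells. They had to come out lower, and their direction is no result. Ifngr1, the interferon gamma receptor chain, stood at 73.4 and 318 CPM in distraction and 51.3 and 325 CPM in sham.

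**Figure D4:**
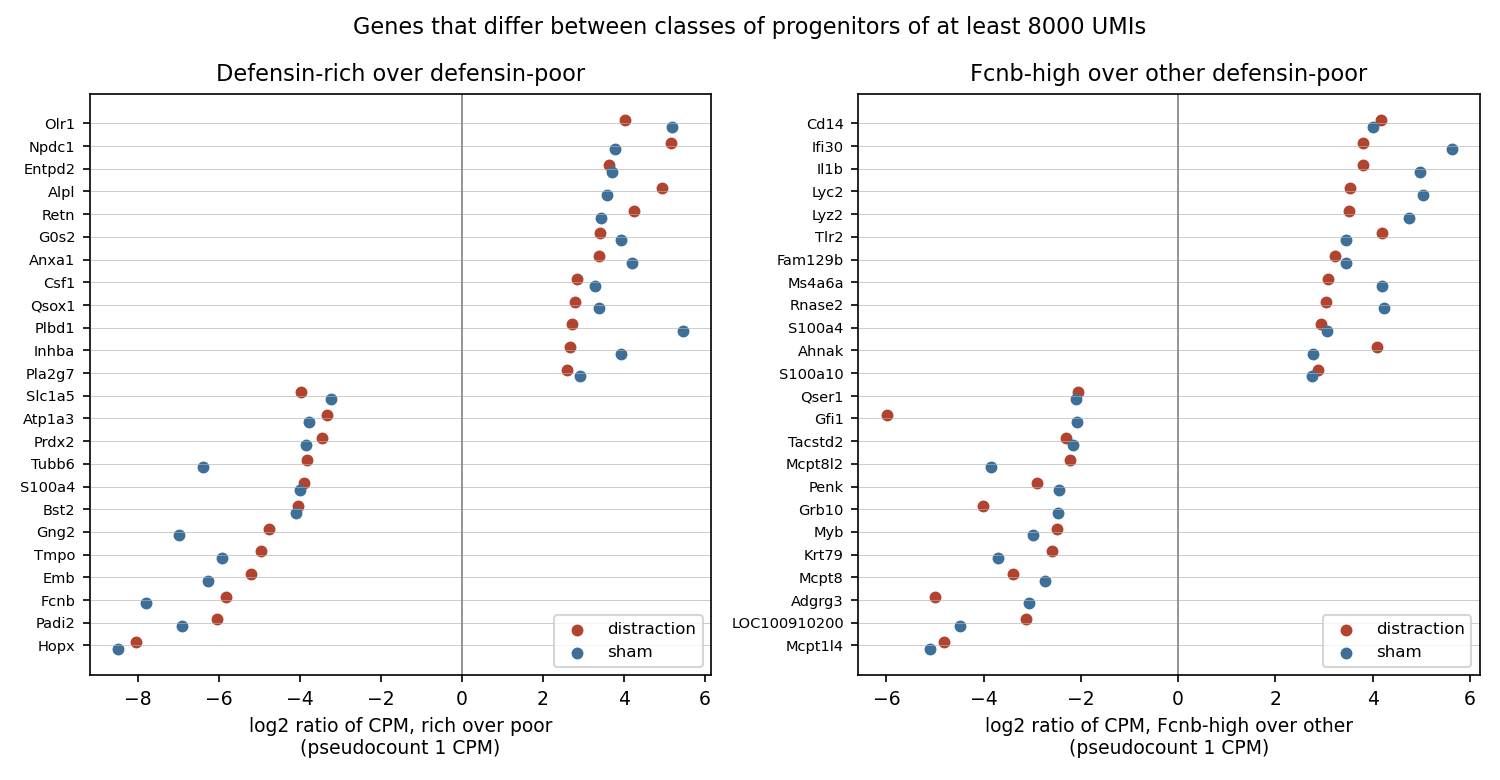
Log2 ratio of CPM (x axis, pseudocount 1 CPM) in deep progenitors of distraction (red) and sham (blue) for the 12 highest and 12 lowest genes, on the left for defensin-rich over defensin-poor cells and on the right for Fcnb-high over the other defensin-poor cells. Both libraries lie on the same side of 0 for each gene shown, as the choice of genes requires.

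High levels of Fcnb were held by few of the defensin-poor progenitors, while others had it at lower levels. Over all progenitors it was seen in 35 of 100 distraction and 22 of 73 sham cells. Taking at least 0.1% of a cell's UMIs as the limit, chosen after the values were seen, 6 of 100 distraction progenitors (6%, 2.23 to 12.6) and 10 of 73 sham progenitors (13.7%, 6.77 to 23.8) were Fcnb-high. All of them were defensin-poor, making 16.7% of 36 defensin-poor distraction cells and 25% of 40 sham cells. The nearest cells under the limit had 908 CPM of Fcnb in distraction and 757 CPM in sham, and those above it 1773 and 1355 CPM. No clear gap thus lay there, although the distraction cell at 908 CPM had only 1101 UMIs. The deep ones, 6 distraction and 8 sham cells, were set against the 26 and 18 other deep defensin-poor cells. Of 3310 genes, 101 were higher in Fcnb-high cells in both libraries (3.05%) and 45 lower (1.36%).

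Several monocyte genes stood higher in these cells. Of 14 monocyte and macrophage markers measured, 5 were tested, Csf1r, Irf8, F13a1, Klf4 and Cd68, and some of these reached 50 CPM only in the Fcnb-high cells, so that they had to come out higher and their count is no result. F13a1, which passed in both sets, stood at 634 CPM in Fcnb-high and 291 CPM in other poor distraction cells, and at 759 and 327 CPM in sham cells. Csf1r, the receptor of macrophage colony-stimulating factor, stood at 95.9 CPM in Fcnb-high and 18.1 CPM in other poor distraction cells, and at 142 and 17.7 CPM in sham cells. Irf8, a transcription factor gene needed for monocytes, stood at 75.1 and 12.8 CPM in distraction and 304 and 44.2 CPM in sham. Cd14, a co-receptor for bacterial lipopolysaccharide, stood at 672 and 36.2 CPM in distraction and 617 and 37.1 CPM in sham. Lyz2, a lysozyme gene, stood at 17932 and 1576 CPM in distraction and 23476 and 868 CPM in sham. Il1b, the interleukin 1 beta gene, stood at 801 and 56.4 CPM in distraction and 1373 and 42.5 CPM in sham. Cd14 in both libraries and Il1b in sham reached 50 CPM only in the Fcnb-high cells, so they had to come out higher there. Tlr2, Ahnak, Ifi30, Lyc2, Fam129b, Ms4a6a, Rnase2, S100a4 and S100a10 made up the rest of the 12 highest.

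Of the granulocyte transcription factors tested, 3 of 15 were higher in Fcnb-high cells (Cebpb, Irf8 and Klf4) and 3 lower. Irf8 reached 50 CPM only in the Fcnb-high cells and so had to come out higher, and these counts are no result. Of the granule companions 2 of 11 were higher, Lyz2 and Fcnb itself, and 0 lower, and of the late neutrophil list 3 of 8 were higher and 0 lower. The rule genes chose the cells, and their values are given as a description. Elane had 2048 CPM in Fcnb-high and 5470 CPM in other poor distraction cells, and 2253 and 5372 CPM in sham cells. Prtn3 had 1193 and 3286 CPM in distraction and 1401 and 3435 CPM in sham. The 4 rule genes summed to 14319 and 35104 CPM in distraction and 18120 and 35691 CPM in sham. Gfi1, a transcription factor gene needed for neutrophils, had no UMI in the distraction Fcnb-high cells and 62.8 CPM in the others, and 15.1 and 67.2 CPM in sham. Myb, a transcription factor gene of early progenitors, stood at 12.5 and 74.5 CPM in distraction and 6.02 and 54.8 CPM in sham. Gfi1 and Myb reached 50 CPM only in the other defensin-poor cells, so they had to come out lower. Kit stood at 58.4 and 171 CPM in distraction and 69.3 and 228 CPM in sham.

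The Fcnb-high cells lay near the limit of the rule, with a median of 1.36% of UMIs from the 4 genes in distraction and 1.84% in sham. Monocyte and macrophage markers summed to 1135 CPM in Fcnb-high and 425 CPM in other poor distraction cells and to 1768 and 486 CPM in sham cells, with 5 and 4 of 14 markers at 0 in the Fcnb-high cells. T and NK markers were at 0 for 8 of 8 in both. S phase genes summed to 4868 and 2141 CPM in distraction and 2702 and 2114 CPM in sham, with 0 of 13 called. Whether a Fcnb-high droplet held 1 cell or a progenitor with a monocyte was not tested. The group rests on 6 and 8 deep cells.

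Mast cell and basophil protease genes were among those lower in Fcnb-high cells. Mcpt8, a protease gene of basophils, stood at 20.9 CPM in Fcnb-high and 229 CPM in other poor distraction cells, and at 60.2 and 407 CPM in sham cells. Mcpt1l4 stood at 8.34 and 263 CPM in distraction and 18.1 and 658 CPM in sham. Mcpt1l4 in both libraries and Mcpt8 in distraction reached 50 CPM only in the other poor cells. They had to come out lower there. Mast cell protease genes are near-identical copies, so their counts could be split between copies and are uncertain. The eosinophil, basophil and mast list summed to 54.2 CPM in Fcnb-high and 309.9 CPM in other poor distraction cells, and to 111 and 536 CPM in sham cells. Of its 12 markers 8 and 6 were at 0 in Fcnb-high cells, and 5 and 4 in the others.

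Cell cycle genes were expressed in both libraries' progenitors. Progenitors were ranked by their summed share of S phase and G2/M genes, and the upper tercile held 33 of 100 distraction and 25 of 73 sham cells. S phase genes summed to 2311 CPM in distraction and 2228 CPM in sham progenitors, and G2/M genes to 1710 and 1911 CPM. Of 2950 genes tested between the upper and lower terciles within each library, 196 were higher (6.64%) and 39 lower (1.32%) past a ratio of 1.5 in both. The lists that made the ranking had 13 of 14 S phase and 13 of 13 G2/M genes higher. Outside them Ncaph, a condensin subunit gene, stood at 72.6 CPM in the upper and 1.26 CPM in the lower tercile of distraction progenitors and at 63.6 and 2.64 CPM in sham, and Mybl2, a cell cycle transcription factor gene, at 101 and 7.57 CPM in distraction and 94.6 and 0 CPM in sham. Of genes lower in the upper tercile, Il2rg, the common cytokine receptor chain, stood at 23.9 and 61.8 CPM in distraction and 22.4 and 87.2 CPM in sham. Ncaph and Mybl2 reached 50 CPM only in the upper tercile and Il2rg only in the lower, so their direction is no result. Fut7, the fucosyltransferase that makes selectin ligands, stood at 55.1 and 127 CPM in distraction and 53.3 and 122 CPM in sham. Of the rule genes 0 of 4 were called. With progenitors thinned to 4000 UMIs first, 21 genes were higher and 4 lower. Thinning left out 17 distraction and 31 sham cells and lowered the counts, so fewer genes could be called. The upper tercile was deeper than the lower, with median UMIs of 39478 and 27290 in distraction and 29364 and 17331.5 in sham. The middle tercile had 32472 and 8830. How far the calls depended on depth was not tested.

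As a share of each library, progenitors were more frequent in distraction. They made up 2.48% (2.02 to 3.005) of distraction cells and 1.41% (1.11 to 1.77) of sham cells, a ratio of 1.76 (1.29 to 2.41). The denominators differed in kind, since B-lineage cells made up far more of the sham library. Among cells other than B-lineage the shares were 4.08% and 4.10%, a ratio of 0.995 (0.728 to 1.36). Among neutrophil-lineage cells, progenitors included, they were 8.96% and 10.4%, a ratio of 0.863 (0.632 to 1.18). A change in progenitors and a change in the other cells cannot be told apart from shares.

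The split by depth changed this share. Among cells of at least 8000 UMIs, 82 of 1168 distraction cells (7.02%) and 41 of 993 sham cells (4.13%) were progenitors, a ratio of 1.70 (1.16 to 2.54). Among cells under 8000 UMIs, 18 of 2869 (0.627%) and 32 of 4190 (0.764%) were, a ratio of 0.821 (0.434 to 1.51). Among neutrophil-lineage cells alone, the ratio was 0.991 (0.673 to 1.48) at 8000 UMIs or more and 0.388 (0.205 to 0.712) under it. With cells thinned to 2000 UMIs before the rule was applied, the ratio was 2.28 (1.59 to 3.31), with 93 distraction and 47 sham progenitors. This left out the 529 distraction and 1147 sham cells of lower depth. Equal depth and the loss of shallow cells cannot be told apart in this ratio. By class, defensin-rich progenitors made up 1.29% of distraction and 0.424% of sham cells, a ratio of 3.03 (1.81 to 5.25), and defensin-poor ones 0.892% and 0.772%, a ratio of 1.16 (0.716 to 1.86). Among neutrophil-lineage cells the ratios were 1.49 (0.889 to 2.57) for the defensin-rich and 0.567 (0.351 to 0.912) for the defensin-poor class.

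Within the progenitors, 53 of 3141 genes were higher in distraction than in sham (1.69%) and 190 lower (6.05%), called at a ratio of at least 1.5 with the interval on 1 side of 1. The median log2 ratio over all genes was -0.14. With this median set to 0, 119 genes were higher and 96 lower, so the excess of lower genes was not kept under that scaling. Within the low depth tercile 75 of 831 genes were higher (9.03%) and 92 lower (11.1%), within the middle tercile 102 of 3087 (3.30%) and 422 (13.7%), and within the high tercile 117 of 3304 (3.54%) and 461 (14.0%). In deep progenitors of all classes 56 of 3158 were higher (1.77%) and 210 lower (6.65%). In all 3 depth terciles 45 of the 53 and 123 of the 190 had the same direction. With levels weighted to the same mix of defensin classes in both libraries, 48 genes were higher (1.53%) and 88 lower (2.80%), with a median of -0.01. In deep defensin-poor cells 107 of 3443 genes were higher (3.11%) and 141 lower (4.10%), and in deep defensin-rich cells 146 of 2656 were higher (5.50%) and 176 lower (6.63%), where sham had 11 cells.

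Defensin genes were higher in distraction progenitors. RatNP-3b stood at 33380 CPM in distraction and 16844.5 CPM in sham progenitors, a ratio of 1.98 (1.95 to 2.01), against 674 and 406 CPM in B-lineage cells. Over single progenitors it had a median of 10290 CPM and a highest value of 218025 CPM in distraction, and a median of 443 CPM and a highest value of 149419 CPM in sham, so the cells of both libraries overlapped, with the highest distraction cells above any sham cell. The narrow interval of the ratio does not cover this spread between cells. Defa5 stood at 30510 and 16719 CPM, a ratio of 1.82 (1.80 to 1.85). Defa11 stood at 282 and 90.5 CPM, with 52.8% of its sham counts in 1 cell. All 5 defensin genes tested, of 9 in the tables, were higher, with a median of 0.99. Weighted to the same mix of classes, 0 of 5 were called and the median was -0.12. The classes were set on the summed defensin share of each cell. A smaller difference after weighting or within a class thus follows from the classes and is no separate result. In deep defensin-rich cells RatNP-3b had a log2 ratio of -0.12 and Defa5 of -0.16, and in deep defensin-poor cells RatNP-3b was at 0.34 and Defa5 at -0.18. Defensin genes are close copies of each other, so the counts of a single one are uncertain.

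Other granule genes differed in both directions. Serpinb1a stood at 3985 CPM in distraction and 2186 CPM in sham, a ratio of 1.82 (1.75 to 1.90), with log2 ratios of 0.21 in deep defensin-poor and 0.46 in deep defensin-rich cells. Ms4a3 stood at 677 and 409 CPM, a ratio of 1.65 (1.51 to 1.82), with -0.04 in deep poor and 0.54 in deep rich cells. Olfm4, which encodes the granule glycoprotein olfactomedin 4, stood at 256 and 23.6 CPM, and in each library 1 cell held much of its counts, 39.0% in distraction and 53.1% in sham. S100a9 stood at 2078 and 812 CPM, a ratio of 2.56 (2.40 to 2.73), and S100a8, its calprotectin partner, at 2226 and 1141 CPM, a ratio of 1.95 (1.84 to 2.06). Of secondary granule genes 6 of 9 were higher and 2 lower (median 0.87). Ngp was among these, at 355 and 85.4 CPM, and a single distraction cell held 58.5% of its counts.

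That cell stood apart from the other progenitors. It had 9281 UMIs, 1.14% of them from the rule genes, and 121108 CPM of secondary granule genes, where the next distraction progenitor had 21153 CPM. In the sham library a cell of 8977 UMIs had 138911 CPM of erythroid markers, where the next had 33708 CPM. Without these 2 cells, which were picked after the values were seen, 52 of 3125 genes were higher (1.66%) and 186 lower (5.95%). The erythroid list then had 0 of 1 called, in place of 3 of 3 lower. S100a9 had a log2 ratio of 1.15 and Ngp of 0.80 without them, in place of 1.35 and 2.04. In deep defensin-poor cells the secondary granule list had 3 of 7 higher and 1 lower without them, in place of 7 of 9 and 1, and over all genes 100 of 3417 were higher (2.93%) and 134 lower (3.92%).

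Fcnb and several genes that stood higher in Fcnb-high cells were lower in distraction progenitors. Fcnb stood at 423 CPM in distraction and 1688 CPM in sham, a ratio of 0.251 (0.234 to 0.269). It was seen in 35 of 100 and 22 of 73 progenitors and in 4.73% and 4.61% of B-lineage cells, with highest values of 9167 CPM in distraction and 12470 CPM in sham, and thus rested on few cells in each. Lyz2 stood at 3177 and 6716 CPM, a ratio of 0.473 (0.460 to 0.487), against 548 and 417 CPM in B-lineage cells. Il1b stood at 128 and 389 CPM, a ratio of 0.330 (0.289 to 0.378). Klf4, a transcription factor gene of monocytes, stood at 31.3 and 69.9 CPM, and Psap, the precursor of lysosomal saposins, at 609 and 1071 CPM. Of the monocyte list 3 of 4 tested were lower (median -0.95), and 3 of 5 in deep defensin-poor cells (median -0.89). In deep defensin-rich cells Fcnb, Lyz2, Klf4 and Psap had log2 ratios above 0, of 0.69, 0.51, 0.55 and 0.27. The share of Fcnb-high cells moved with these genes. Without Fcnb-high cells, the deep defensin-poor cells had log2 ratios of 0.86 for Lyz2, 0.40 for Il1b, 0.01 for Psap and -0.99 for Klf4, 0 of 2 monocyte markers tested were called, and 119 of 3480 genes were higher (3.42%) and 171 lower (4.91%). Fcnb, which set these classes, was at -0.93. The removed cells were high in Lyz2, Il1b and monocyte markers, so a smaller difference without them follows from the removal. Only 2 of the 5 monocyte markers were still tested, and the rest could not be called, so the 0 calls are no result. In the low depth tercile the ratios were above 0, at 1.89 for Fcnb and 1.78 for Lyz2, and 1 distraction cell held 96.1% of the Fcnb counts and 69.3% of the Lyz2 counts there.

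Genes named by size, with the same direction in 3 depth terciles and no cell holding over 25% of the counts in the library where the gene was higher, gave a further group of higher genes. Lbp, which encodes the lipopolysaccharide binding protein, stood at 131 CPM in distraction and 44.9 CPM in sham, a ratio of 2.92 (2.22 to 3.89), seen in 54 of 100 and 20 of 73 cells, against a level of 7.72 and 8.75 CPM in B-lineage cells. Its log2 ratio was 1.24 in deep defensin-poor and 1.43 in deep defensin-rich cells, and it was called in both. Olr1 stood at 153 and 50.1 CPM, a ratio of 3.06 (2.37 to 4.01), with 0.56 in deep rich cells, where it was not called, and 29.4% of its sham counts in 1 cell. Ceacam1, a surface adhesion gene kept with secondary granule genes, stood at 73.9 and 27.2 CPM (2.71, 1.91 to 3.96). Pecr, a peroxisomal reductase gene, stood at 85.8 and 31.7 CPM (2.71, 1.95 to 3.84), and Pon2, a paraoxonase gene, at 70.1 and 29.4 CPM (2.38, 1.69 to 3.43). Ppp1r3d, NEWGENE_620180, Ankrd22 and Pla2g7 lay between ratios of 1.97 and 2.24.

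**Figure D5:**
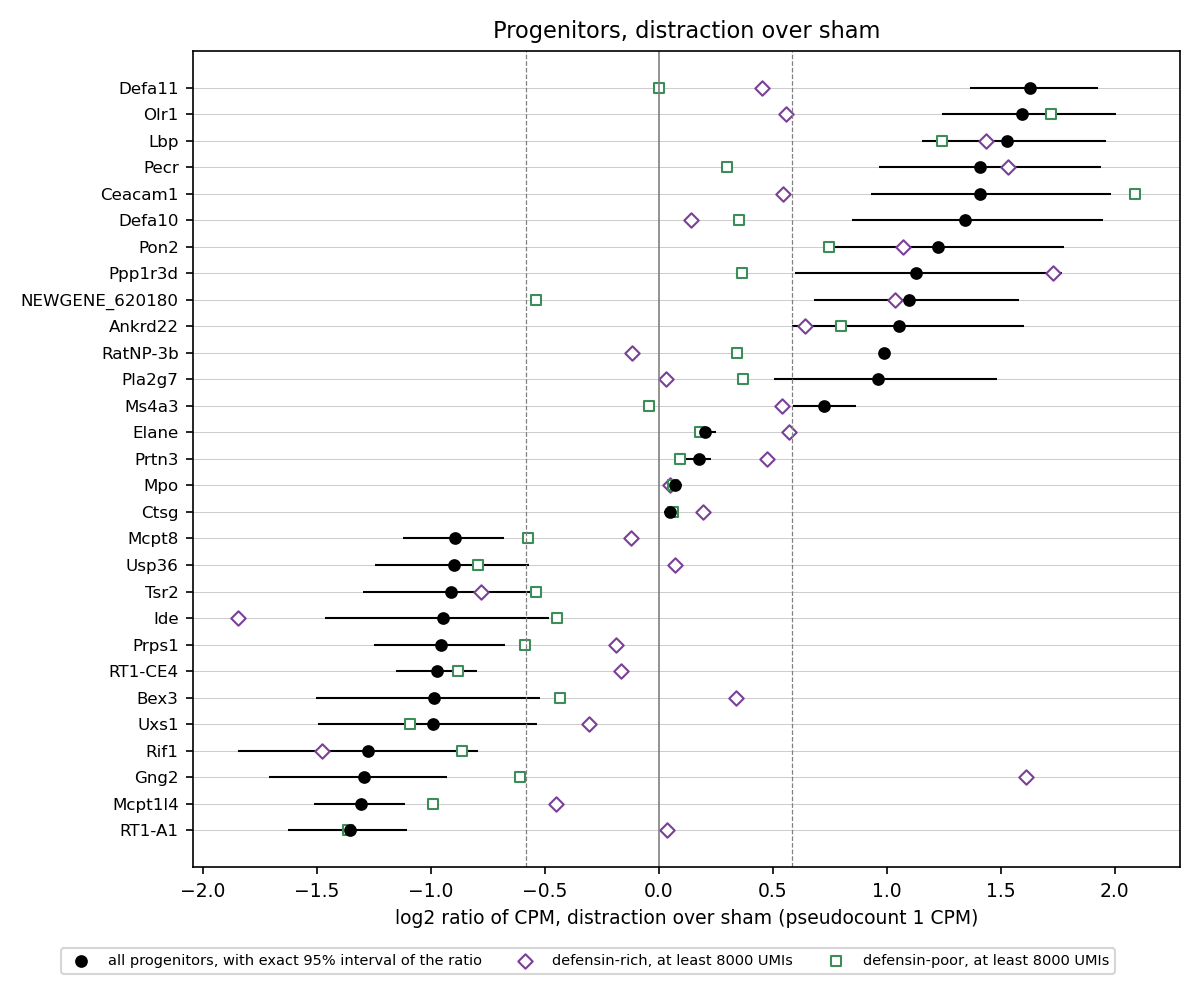
Log2 ratio of CPM, distraction over sham (x axis, pseudocount 1 CPM), for the 12 highest and 12 lowest genes and the 5 marker genes over all progenitors (black, with exact 95% interval) and in deep defensin-rich (diamonds) and deep defensin-poor cells (squares). Dashed lines are at a ratio of 1.5 either way. RatNP-3b, 1 of the defensin genes that set the classes, lies at 0.99 over all progenitors and at -0.12 and 0.34 in the classes. Lbp lies above 1.2 in all 3.

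The lowest genes included class I genes of antigen presentation. RT1-A1 stood at 76.3 CPM in distraction and 197 CPM in sham, a ratio of 0.388 (0.323 to 0.465), and RT1-CE4 at 188 and 370 CPM, a ratio of 0.509 (0.450 to 0.575). In B-lineage cells RT1-A1 stood at 227 and 389 CPM and RT1-CE4 at 424 and 562 CPM, above the progenitors. B markers were also lower in distraction than in sham progenitors, at 25.2 and 71.4 CPM, and the part of RNA from B-lineage cells in these differences was not tested. Of the class I list 3 of 6 were lower and 0 higher (median -0.61), and 3 of 6 in deep defensin-poor cells, against 0 of 4 in deep defensin-rich cells, where RT1-A1 was at 0.04. RT1 genes are near-identical copies that differ between strains, and their counts are uncertain. Mcpt1l4 stood at 135 and 335 CPM, a ratio of 0.403 (0.351 to 0.462). Gng2, a G protein subunit gene, stood at 35.4 and 88.3 CPM (0.401, 0.305 to 0.526), with a log2 ratio of -0.61 in deep poor and 1.61 in deep rich cells. Rif1, a DNA replication timing gene, stood at 20.1 and 50.1 CPM (0.401, 0.278 to 0.577). Uxs1, Bex3, Prps1, Ide, Tsr2, Usp36 and Mcpt8 lay between ratios of 0.494 and 0.536.

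Some heat shock and cytokine response genes were lower. Of heat shock genes 3 of 7 were lower and 0 higher (median -0.43), and the counts were 4 of 8 in deep defensin-poor cells, 3 of 7 in deep defensin-rich cells, 0 of 3 in the low depth tercile and 1 of 7 with the mix of classes weighted to be the same. Dnaja1, a co-chaperone gene, stood at 311 CPM in distraction and 481 CPM in sham, a ratio of 0.646 (0.584 to 0.716), with -0.69 and -1.40 in deep poor and rich cells. Hsph1, a large heat shock protein gene, stood at 96.3 and 216 CPM, with 39.2% and 33.1% of its counts in 1 cell of each library. Of the STAT3, NF-kB and cytokine response list 5 of 9 were lower and 0 higher (median -0.61), among them Nfkb2 at 50.7 and 89.1 CPM, and 2 of 9 with the mix of classes weighted to be the same. Without Fcnb-high cells, the deep defensin-poor cells had 0 of 8 lower and 2 higher on this list, and 1 of 7 heat shock genes lower. Genes of the cytokine response list were among those higher in the removed cells, so its loss of lower calls is no separate result. In the low depth tercile 3 of 4 genes of the cytokine response list were higher (median 2.30), and in the middle cycle tercile 3 of 10 were higher and 2 lower. Over all genes, 9.03% were higher in the low depth tercile, and 122 of 3309 were higher and 672 lower in the middle cycle tercile.

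Over all progenitors and in both deep classes, 3 genes were called higher and 13 lower. The sets had 3141, 3443 (deep defensin-poor) and 2656 (deep defensin-rich) genes tested. The number tested in all of them was not counted, so no joint share is given. All progenitors include the cells of both classes, so the calls are not independent. Whether these counts are more than such joint calling would give was not tested. The higher ones were Lbp, Rab31, a vesicle transport GTPase gene, at 140 and 75.8 CPM, and H2afz, the histone H2A.Z gene, at 94.3 and 60.4 CPM. The lower ones included AABR07065625.1, which stood at 7270 and 8113 CPM in B-lineage cells, Hba-a2, a haemoglobin gene with 61.5% of its sham counts in 1 cell, and LOC108348108, with 62.0% and 48.8% of its counts in 1 cell and log2 ratios of 3.41 and 0.43 in the low and high depth terciles. They also included Dnaja1, Dnajb4, Hsph1, Il1b, the phosphatase gene Dusp6 at 87.5 and 146 CPM, the splicing factor gene Rbm5 at 72.8 and 112 CPM, and Ube2c, a ubiquitin-conjugating enzyme gene of mitosis, at 65.0 and 115 CPM. Arid4a, LOC100359515 and RF00016 made up the rest. Apart from Lbp, Il1b and the list members Dnaja1, Hsph1 and Ube2c, these were chosen after their values were seen.

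Over all progenitors, genes of protein making and the cell cycle had few calls. None of 25 genes of endoplasmic reticulum folding (median -0.15), 16 of ribosome making (-0.39), 17 of oxidative phosphorylation, 13 of S phase or 4 of the phagocyte oxidase was called in either direction, and 1 of 10 G2/M genes was lower. Within terciles more were called, as they were over all genes. In the high depth tercile 8 of 17 G2/M genes were lower (median -0.59), beside 14.0% of all genes. In the middle one 5 of 12 S phase and 5 of 15 ribosome making genes were lower, beside 13.7% of all genes. In the middle cycle tercile 6 of 25 folding genes were lower, a share similar to the 672 of 3309 over all genes. In the low depth tercile 3 of 4 oxidase genes were higher, beside 9.03% of all genes. The rule genes had 0 of 4 called, with a median of 0.12. Kit stood at 80.0 CPM in distraction and 124 CPM in sham, a ratio of 0.643 (0.525 to 0.788), and at log2 ratios of -0.19 in deep poor and -0.23 in deep rich cells, not called in the deep poor cells and too low to be tested in the deep rich ones. Col1a1, a collagen gene of bone and fibroblasts, stood at 37.8 and 80.2 CPM in progenitors.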

How the data were processed

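The authors deposited raw UMI counts, 1 row per cell. Per the file headers, these came from version 1.5.1 of the BD WTA Rhapsody Analysis Pipeline. The submitters' processing notes list Rnor_6.0 and Seurat 3.6, with no role. How barcodes became cells is not stated there. The tables had 18818 genes in common. Genes of either table were used, and a gene missing from 1 table was taken as having no counts there. Kept cells held 31202493 UMIs in distraction and 29488955 in sham, and progenitors 2937570 and 1358543.

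Counts were summed over cells and scaled to CPM. Genes with at least 50 CPM in 1 library and 30 counts over both were compared, with log2 ratios at a pseudocount of 1 CPM and exact conditional binomial intervals of 2 Poisson counts at 95%. Within libraries, a gene at 50 CPM in only 1 of the 2 sets of cells could be called in that set's direction alone. Between libraries a gene was called at a ratio of 1.5, and within libraries at 2 (cycle 1.5) in both. Exact intervals for shares are Clopper-Pearson. Named genes were the 12 highest and 12 lowest called genes with 1 direction over 3 depth terciles and at most 25% of counts in 1 cell, up to 4 members of each list, and in the contrasts within libraries the 5, 10 or 12 highest and lowest. Others, such as Mcm6, Chi3l1, Calr and Cybb, are list members picked after their values were seen. Camp, misplaced among defensins at first, was moved out of that list. The members and lists were chosen with earlier results of these data known, and the 8000 UMI limit, the defensin and Fcnb classes and the removal of 2 single cells were added after the data were seen. Python 3.11.15, numpy 2.4.6, scipy 1.17.1, pandas 2.3.3 and matplotlib 3.10.9 were used. The ratios were tested on simulated pooled Poisson counts without spread between cells, which is what the intervals assume. That simulation cannot show how calls behave where 1 cell holds much of a gene's counts.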

Additional observations from a re-analysis of the deposited data

Results flagged for a closer look

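Of the progenitor genes, 5 had opposite directions in the low and the high depth tercile, each called in its tercile, and the difference itself was not tested. Fcnb had a log2 ratio of distraction over sham of 1.89 in the low tercile and -2.23 in the high one. Its low tercile counts were 103 in distraction and 24 in sham, and 1 distraction cell held 96.1% of the 103. Il1b had 2.58 and -2.50, with 85.7% of 35 low tercile distraction counts in 1 cell. Lyz2 had 1.78 and -1.61, with 69.3% of 602 counts in 1 cell. Ctsz, a lysosomal protease gene, had 1.51 and -0.76, with 36.4% of 33 counts in 1 cell. F13a1, the coagulation factor XIII A chain gene, had 1.20 and -0.64, with 66.7% of 24 counts in 1 cell.

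Ngp had opposite directions in the 2 deep defensin classes, at 4.16 in defensin-poor and -2.51 in defensin-rich cells, and the difference was not tested. In defensin-poor distraction cells 1 cell held 62.3% of 981 counts, and in defensin-rich sham cells 1 cell held 90.5% of 63 counts.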

How the results depend on the processing

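The higher share of progenitors among kept cells in distraction turned to a ratio of 0.821 under 8000 UMIs, where the ratio among neutrophil-lineage cells was 0.388. The 53 higher and 190 lower genes became 119 and 96 with the median ratio set to 1, 190 and 739 with no minimum, 16 and 34 at a ratio of 2, 101 and 395 standardised over depth terciles, and 83 and 117 without each gene's highest cell. Higher genes were 183 with cells weighted equally, 84 with defensins left out of the total, 107 in deep defensin-poor and 146 in deep defensin-rich cells. Lower genes were 77 with cells thinned to 2000 UMIs before the rule and 88 standardised over defensin classes. Against other neutrophil-lineage cells, a ratio of 3 left 793 higher and 295 lower genes. Cycle calls fell to 21 higher and 4 lower in cells thinned to 4000 UMIs, which also leaves out shallower cells.

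Over named genes, 1711 alternative values kept direction and size, 526 moved and 31 changed sign. This tally leaves out single depth and cycle terciles and the deep defensin-poor cells without Fcnb-high ones, where Fcnb, Il1b and Lyz2 also changed sign in at least 1 of these. In deep defensin-rich cells the log2 ratio was 0.0028 for Ahsp, 0.34 for Bex3, 0.55 for Ccl4, 0.13 for Cd68, -0.16 for Defa5, 0.69 for Fcnb, 1.61 for Gng2, 0.75 for Irf8, 0.55 for Klf4, 0.51 for Lyz2, 0.0030 for Nfkb2, -2.51 for Ngp, 0.27 for Psap, 0.036 for RT1-A1, -0.12 for RatNP-3b, -0.46 for S100a8, 1.19 for Slc2a1 and 0.072 for Usp36. In deep defensin-poor cells it was -0.18 for Defa5, 0.39 for Egr1, 0.021 for Icam1, -0.045 for Ms4a3 and -0.54 for NEWGENE_620180. Standardised over defensin classes, which were set on the defensin genes, it was -0.21 for Defa5 and -0.12 for RatNP-3b. It was 4.49 for Bst2, 0.99 for RT1-CE5 and 0.015 for Uxs1 with cells thinned to 2000 UMIs before the rule, 0.26 for Ccl4 and 0.017 for Tsr2 in progenitors thinned to 4000 UMIs, and 0.012 for Hbb with the rule at 0.5%. The cause of these changes was not tested. Lbp was called higher in 21 of 21 settings of the tally. No paired analysis was possible because each group has 1 library.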
